A study of Mus musculus with 12 samples.

Results

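The genes that import proteins into mitochondria were examined in mouse liver RNA measured on 12 Affymetrix Mouse Gene 1.0 ST arrays. Members were all probe sets with 1 gene symbol that begins with Timm or Tomm followed by a digit, which gave 27 of 34760 probe sets and 24 genes (16 probe sets of 14 TIMM genes and 11 of 10 TOMM genes). Another 1 probe set, annotated to both Timm10b and Dnhd1, was left out because it carries several symbols. Timm17a, Timm8a1 and Tomm20 had 2 probe sets each. Each array held the liver of 1 male mouse, and each of the 4 groups had 3 mice from different mothers or recipients. The groups were Atf7-/- IVF (in vitro fertilization), Atf7-/- natural mating, WT IVF and WT natural mating, named by the genotype of the mice and the way they were conceived, all on the C57BL6/JJmsSlc background. The labels call the Atf7-/- genotype Atf7 mutant and give an age of 4 weeks. The paper gives a younger age. IVF pups came from superovulated females and were carried by pseudopregnant ICR recipients, which natural mating pups were not, so superovulation, fertilization in vitro, culture and the recipient mother cannot be told apart.

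Nearly all mitochondrial proteins are made in the cytosol and enter through the TOM complex of the outer membrane, in which Tomm20, Tomm22 and Tomm70a are receptors and Tomm40 is the channel. Proteins with an amino-terminal presequence then pass the TIM23 complex of the inner membrane. Hydrophobic carrier proteins are led through the space between the membranes by the small TIM chaperones and are inserted by the TIM22 complex. Hepatocytes are rich in mitochondria, which house much of the urea cycle and of fatty acid oxidation.

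Log2 expression values, as normalized by the authors, were compared between the 4 groups with limma over all 34760 probe sets. A probe set passed the test where its p, adjusted by Benjamini and Hochberg's procedure, was 0.05 or less, and was called where its log2 fold change also reached 0.6 in either direction. The study asked whether ATF7, a transcription factor that silences its target genes, takes part in the changes that IVF leaves in liver expression. Array medians lay between 6.22 and 6.34, and Pearson's r between arrays of 1 group, taken over probe sets as a description, lay between 0.980 and 0.990. The first of 2 Atf7 probe sets lay between 5.34 and 5.68 in Atf7-/- IVF, 5.82 and 6.11 in Atf7-/- natural mating, 7.56 and 8.38 in WT IVF and 8.58 and 8.94 in WT natural mating livers. The other Atf7 probe set lay between 8.28 and 8.43 in Atf7-/- IVF, 8.61 and 8.72 in Atf7-/- natural mating, 8.70 and 8.88 in WT IVF and 8.87 and 9.27 in WT natural mating livers. The genotypes thus separated on the first probe set and overlapped on the second, and whether either lies in the part of the gene that was deleted was not analysed here. Of 7 hepatocyte markers 6 were measured, and their mean log2 value lay between 12.7 and 13.0 on all 12 arrays. This mean hides moves of single markers, of which 3 were higher and 3 lower in Atf7-/- than in WT natural mating livers. Hnf4a averaged 11.74 in Atf7-/- and 11.06 in WT natural mating livers, and Pck1 12.25 and 12.68. Livers are mixtures of cell types, so fewer cells of a type and less RNA per cell cannot be told apart.

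Of the 27 probe sets, 9 passed the test in at least 1 comparison (8 genes) and 18 passed in none (16 genes). The share of all probe sets that passed in at least 1 comparison was not counted, so the 9 cannot be set against it. In Atf7-/- against WT natural mating livers alone, 7.27% of all probe sets passed higher and 6.44% lower. Of the 27 members, 1 was called higher and 2 lower there, where 3.83% of all probe sets were called higher and 3.67% lower. The 3 that were called in any comparison are annotated to 2 genes, Timm8a1 and Tomm22, and both stood apart in the Atf7-/- natural mating livers. Timm8a1 was lowest there and Tomm22 was highest there. A second pattern was shared by Timm10, Timm44, Tomm40 and Timm13, whose 3 WT natural mating values were the highest of the 12. The share of all probe sets with either order of the groups was not counted, so neither pattern is shown to be particular to these genes. The main channel and receptor genes of the inner membrane, Timm23, Timm17a, Timm22 and Timm50, did not pass in any comparison.

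**Figure D1:**
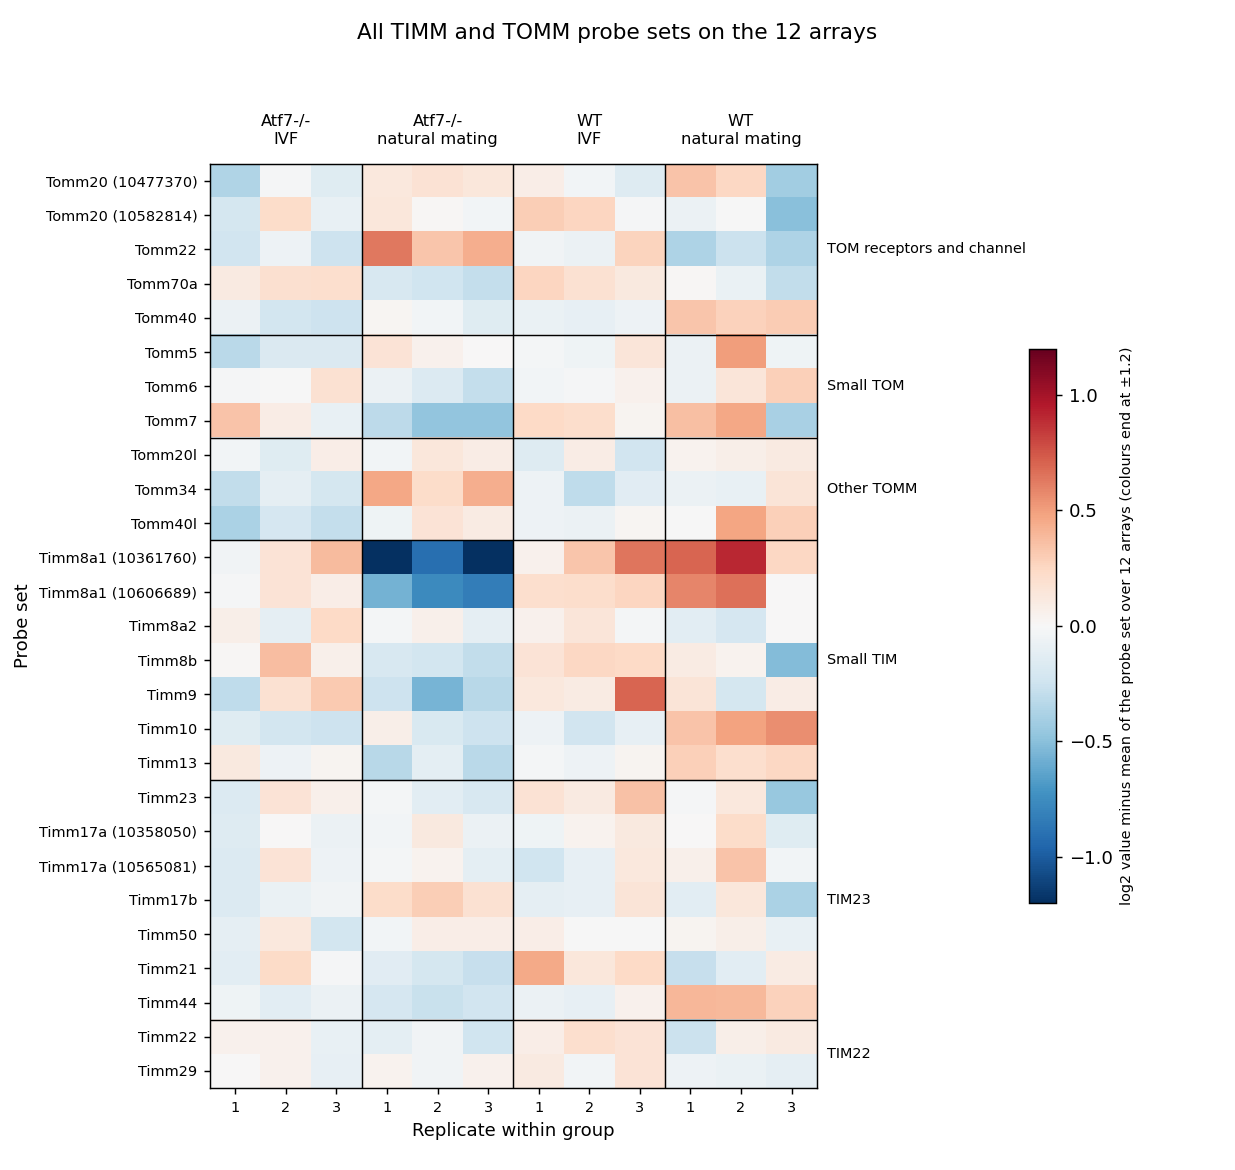
Log2 expression values of all 27 TIMM and TOMM probe sets (rows, by complex) on the 12 arrays (columns, 3 replicates in each of 4 groups), each minus the mean of its probe set over the 12 arrays. Both Timm8a1 probe sets are low on the 3 Atf7-/- natural mating arrays, on which Tomm22 and Tomm34 are high.

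Timm8a1 had the widest range of group means among the members. It encodes a small TIM chaperone that works as a complex with Timm13, and loss of its human counterpart TIMM8A causes a syndrome of deafness and dystonia. Its probe set 10361760 read 10.31, 10.51 and 10.73 in Atf7-/- IVF, 9.15, 9.45 and 9.07 in Atf7-/- natural mating, 10.40, 10.69 and 11.0 in WT IVF and 11.05, 11.25 and 10.60 in WT natural mating livers. The 3 Atf7-/- natural mating values lay below all 9 others, and the other 3 groups overlapped. The second probe set, 10606689, read 7.41, 7.59 and 7.51 in Atf7-/- IVF, 6.86, 6.66 and 6.59 in Atf7-/- natural mating, 7.63, 7.64 and 7.68 in WT IVF and 8.01, 8.08 and 7.43 in WT natural mating livers. Again the Atf7-/- natural mating values were the 3 lowest of the 12, and WT natural mating replicate 3 lay below the other 2 arrays of its group. The annotation gives both probe sets the same transcript accessions, and where in the gene either one lies, or whether either also matches a related sequence, was not analysed here. Numbers of the member probe sets mostly run in step with the chromosome of the gene. That of 10606689 follows Timm17b (10598482), which like Timm8a1 is on chromosome X. That of 10361760 falls between Tomm40l on chromosome 1 (10360058) and Timm13 on chromosome 10 (10371006), so it may read a related sequence, which was not tested.

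Between Atf7-/- and WT natural mating livers, probe set 10361760 fell, and its log2 fold change was -1.74 (adjusted p = 0.000329, SE 0.20), or 3.35-fold lower. That of probe set 10606689 was -1.14 (adjusted p = 0.000814, SE 0.15), or 2.20-fold lower. With IVF in Atf7-/- livers probe set 10361760 rose by 1.29 (adjusted p = 0.00206, SE 0.20) and 10606689 by 0.80 (adjusted p = 0.00637, SE 0.15). With IVF in WT livers the fold changes were -0.27 (adjusted p = 0.436, SE 0.20) for 10361760 and -0.19 (adjusted p = 0.483, SE 0.15) for 10606689. The effect of IVF in Atf7-/- livers minus that in WT livers was 1.56 (adjusted p = 0.0085, SE 0.28) for 10361760 and 0.99 (adjusted p = 0.021, SE 0.22) for 10606689. All of these comparisons share arrays, since the Atf7-/- natural mating group enters every one that passed. The 2 falls and 2 rises were called without each array in turn, whereas the difference between the IVF effects for 10606689 missed the threshold without Atf7-/- natural mating replicate 2, Atf7-/- natural mating replicate 3 or Atf7-/- IVF replicate 3 (adjusted p of at most 0.0554). Without WT natural mating replicate 3 the falls were -1.93 and -1.34, and 10606689 also passed lower with IVF in WT livers (-0.40, adjusted p = 0.0404).

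Markers of Kupffer cells, the macrophages of the liver, moved in the same comparison. Of 6 such markers 4 were called lower and 1, Vsig4, higher in Atf7-/- than in WT natural mating livers, with a median log2 fold change of -0.93. Of all probe sets 3.67% were called lower and 3.83% higher, with a median of -0.019. The mean log2 value of the Kupffer markers lay between 9.07 and 9.33 in Atf7-/- IVF, 8.80 and 9.08 in Atf7-/- natural mating, 9.18 and 9.30 in WT IVF and 9.17 and 9.91 in WT natural mating livers. Among them Marco, a scavenger receptor, averaged 6.13 ± 0.27 (SD, n = 3) in Atf7-/- natural mating and 7.23 ± 0.81 in WT natural mating livers. Markers of sinusoidal endothelial cells, cholangiocytes and hepatocytes each had 1 called higher and 0 lower, and erythroid and B and T cell markers 0 and 0. The part of these markers in the values of Timm8a1, Tomm22 and the other members was not tested. Of 6 stellate cell markers, 0 passed in Atf7-/- against WT natural mating livers in the limma fit, with 2 at an unadjusted p under 0.05. All 6 had fold changes above 0 there, with a median of 0.36 and a lowest adjusted p of 0.0503. With IVF in WT livers all 6 stellate markers had fold changes above 0, of which 2 passed and 1 was called higher (median 0.41), and their mean log2 value lay between 9.14 and 9.40 in WT IVF and 8.50 and 9.06 in WT natural mating livers. In that comparison 1 Kupffer marker was called lower (median -0.42), 1 hepatocyte marker lower, 1 sinusoidal endothelial marker higher and 1 B and T cell marker higher. Of all probe sets 2.85% were called higher and 1.67% lower there, with a median of -0.036. With IVF in Atf7-/- livers 1 hepatocyte marker was called lower and 1 B and T cell marker higher, and 0 Kupffer or stellate markers were called in the limma fit, with 4 and 1 at an unadjusted p under 0.05. The shares of all probe sets called in that comparison were 3.27% higher and 3.51% lower.

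Tomm22, the central receptor that also holds the TOM complex together, went the opposite way. Where its only probe set, 10514924, lies, or whether it also matches a related sequence, was not analysed here. The number falls between Tomm5 on chromosome 4 (10512701) and Tomm7 on chromosome 5 (10528523), whereas Tomm22 is on chromosome 15. The values may therefore be those of a related sequence and not of Tomm22 itself, which was not tested. Its probe set read 8.42, 8.58 and 8.39 in Atf7-/- IVF, 9.28, 8.98 and 9.08 in Atf7-/- natural mating, 8.60, 8.57 and 8.91 in WT IVF and 8.27, 8.39 and 8.27 in WT natural mating livers. The 3 Atf7-/- natural mating values were the highest of the 12, and the 3 WT natural mating values were the lowest, though the highest of them was level with Atf7-/- IVF replicate 3 at 8.39. Tomm22 rose by 0.80 (adjusted p = 0.00123, SE 0.12) in Atf7-/- against WT natural mating livers, which is 1.74-fold, and fell by 0.65 (adjusted p = 0.00431, SE 0.12) with IVF in Atf7-/- livers. With IVF in WT livers it had 0.38 (adjusted p = 0.0653, SE 0.12), which passed with median centring and with fewer probe sets tested (adjusted p from 0.0343 to 0.0431), and its IVF effects differed by -1.03 (adjusted p = 0.00477, SE 0.16). Without Atf7-/- natural mating replicate 1 the change with IVF in Atf7-/- livers was -0.57 (adjusted p = 0.0212), which is short of the fold threshold.

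Tomm34, a cytosolic cochaperone that holds precursors before import, was also highest in the Atf7-/- natural mating livers. It read 7.48, 7.67 and 7.57 in Atf7-/- IVF, 8.25, 8.0 and 8.22 in Atf7-/- natural mating, 7.72, 7.48 and 7.65 in WT IVF and 7.71, 7.69 and 7.93 in WT natural mating livers. The 3 Atf7-/- natural mating values were the highest of the 12. Tomm34 fell with IVF in Atf7-/- livers by 0.58 (adjusted p = 0.00567, SE 0.11) on the log2 scale and rose by 0.38 (adjusted p = 0.0399, SE 0.11) in Atf7-/- against WT natural mating livers. The rise missed the threshold when Atf7-/- replicate 1, Atf7-/- replicate 3, WT replicate 1 or WT replicate 2 of natural mating was left out (adjusted p from 0.113 to 0.134). Its IVF effects differed by -0.42 (adjusted p = 0.136, SE 0.15), which did not pass.

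**Figure D2:**
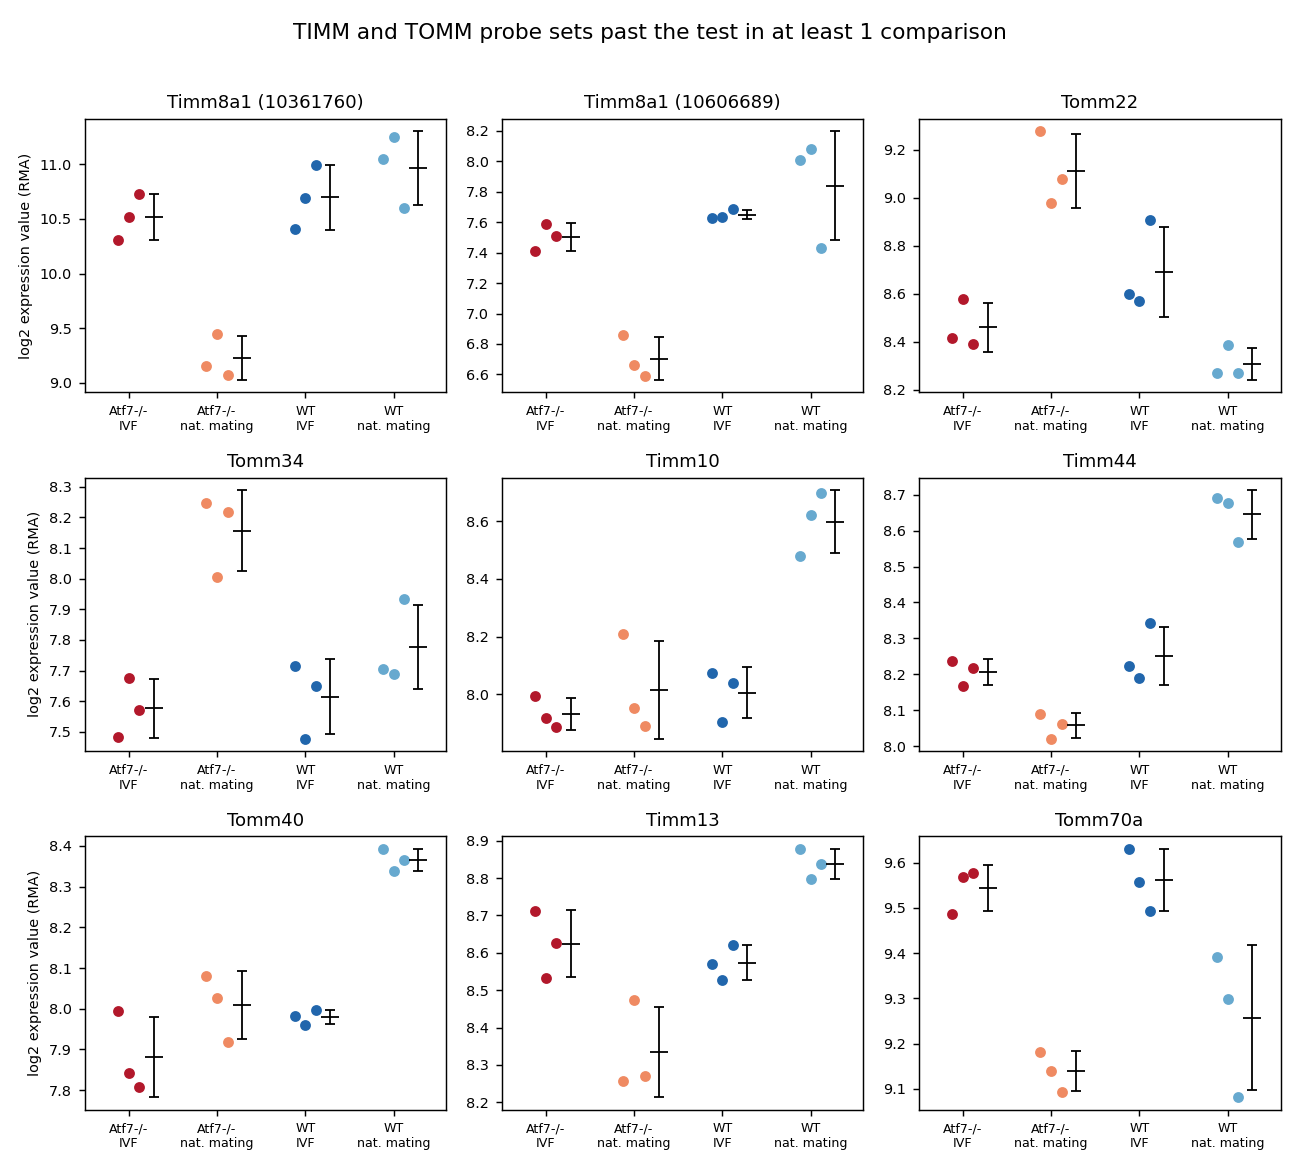
Log2 expression values of the 9 probe sets that passed the test in at least 1 comparison, with 1 point per array and the mean ± SD of 3 arrays in black, for Atf7-/- IVF, Atf7-/- natural mating, WT IVF and WT natural mating livers. The y axes differ between panels and do not start at 0. For Timm8a1 the Atf7-/- natural mating arrays lie below all others, for Tomm22 and Tomm34 above all others, and for Timm10, Timm44, Tomm40 and Timm13 the WT natural mating arrays lie above all others.

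The stretch before the annotated start of these genes was read from RefSeq promoters of GRCm38.p6, of which 21 of the 24 genes had an entry. The 250 bases before the start are shown for Tomm22 and Tomm34, which were high in the same livers, and for Timm8a1, which was low in them. Capitals mark the letters CCGGAAG on either strand, read as CTTCCGG where they lie on the opposite strand, the core that ETS factors such as GABP recognize, and GABP is a known activator of mitochondrial genes.
Tomm22, chr15:79670618-79670867 (+ strand): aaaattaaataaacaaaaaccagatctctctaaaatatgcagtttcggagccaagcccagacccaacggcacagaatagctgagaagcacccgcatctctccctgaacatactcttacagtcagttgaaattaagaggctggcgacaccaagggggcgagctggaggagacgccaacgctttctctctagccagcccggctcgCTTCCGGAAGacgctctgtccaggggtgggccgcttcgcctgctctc
Tomm34, chr2:164071170-164071419 (- strand): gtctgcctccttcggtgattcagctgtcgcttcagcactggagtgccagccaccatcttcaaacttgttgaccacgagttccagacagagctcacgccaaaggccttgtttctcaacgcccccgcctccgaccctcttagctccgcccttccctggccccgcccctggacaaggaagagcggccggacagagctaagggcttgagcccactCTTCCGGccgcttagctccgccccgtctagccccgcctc
Timm8a1, chrX:134541671-134541920 (- strand): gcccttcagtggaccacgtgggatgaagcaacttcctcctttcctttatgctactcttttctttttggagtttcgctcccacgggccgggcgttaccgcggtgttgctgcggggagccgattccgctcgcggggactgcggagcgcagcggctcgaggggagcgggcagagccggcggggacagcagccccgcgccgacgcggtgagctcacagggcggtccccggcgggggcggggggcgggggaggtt
In Tomm22 the letters occur on both strands and overlap in 1 run that begins 47 bases before the start. In Tomm34 they begin 39 bases before the start, and the overlapping window of its other annotated start holds this copy and 1 more. The Timm8a1 window holds none.

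Across the members, 8 of 21 genes (38.1%) held CCGGAAG on either strand in those 250 bases, against 7.83% of 27025 genes in the table and 10.2% of its 17492 protein-coding genes. The 8 were Timm10, Timm23, Timm29, Timm8a2, Timm8b, Tomm22, Tomm34 and Tomm70a. They include genes that rose, fell or did not pass in the comparisons. Member windows were also richer in CG dinucleotides, with a median of 13 against 6 over all windows and 10 over protein-coding ones, and the part of base composition in the share was not tested. The cAMP response element TGACGTCA, to which ATF proteins bind, and its first 6 letters TGACGT were in 0 member windows, against 1.77% and 7.29% of genes in the table. Of its protein-coding genes 2.2% and 8.43% held them. With 21 genes and only 250 bases read, a count of 0 does not show that the members lack ATF sites. For NRF1 only an exact run of letters was searched, and it was in 0 member windows, against 0.877% of genes in the table. Variants of that run were not searched, so this count does not show that the members lack NRF1 sites.

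Timm10, Timm44 and Tomm40 shared the second pattern, in which WT natural mating livers had the highest values and which passed both with IVF in WT livers and between the natural mating groups. Timm10, which forms the main small TIM chaperone with Timm9, read 7.99, 7.92 and 7.89 in Atf7-/- IVF, 8.21, 7.95 and 7.89 in Atf7-/- natural mating, 8.07, 7.91 and 8.04 in WT IVF and 8.48, 8.62 and 8.70 in WT natural mating livers. All 3 WT natural mating values lay above the other 9. Timm10 fell by 0.59 (adjusted p = 0.00806, SE 0.10) with IVF in WT livers and by 0.58 (adjusted p = 0.00383, SE 0.10) in Atf7-/- against WT natural mating livers on the log2 scale, just short of the fold threshold in both. With IVF in Atf7-/- livers it had -0.08 (adjusted p = 0.691, SE 0.10).

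Timm44, which ties the mitochondrial Hsp70 motor to the TIM23 channel, read 8.24, 8.17 and 8.22 in Atf7-/- IVF, 8.09, 8.02 and 8.06 in Atf7-/- natural mating, 8.22, 8.19 and 8.34 in WT IVF and 8.69, 8.68 and 8.57 in WT natural mating livers. It had the smallest pooled SD of the 27 probe sets, at 0.0583, and its WT natural mating values lay above all others. Its log2 fold change was -0.59 (adjusted p = 0.00075, SE 0.0779) in Atf7-/- against WT natural mating and -0.39 (adjusted p = 0.0137, SE 0.0779) with IVF in WT livers. The IVF effect in Atf7-/- livers minus that in WT livers was 0.54 (adjusted p = 0.0152, SE 0.11). The change with IVF in WT missed the threshold without WT IVF replicate 2 (adjusted p = 0.0532).

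Tomm40, the channel of the outer membrane, read 7.99, 7.84 and 7.81 in Atf7-/- IVF, 8.08, 8.03 and 7.92 in Atf7-/- natural mating, 7.98, 7.96 and 8.0 in WT IVF and 8.39, 8.34 and 8.37 in WT natural mating livers. WT natural mating values again lay above the other 9, and the other 3 groups overlapped. Tomm40 fell with IVF in WT livers, at -0.39 (adjusted p = 0.0171, SE 0.0811). It also fell in Atf7-/- against WT natural mating livers, at -0.36 (adjusted p = 0.014, SE 0.0811). The change with IVF missed the threshold without WT IVF replicate 1, 2 or 3 (adjusted p from 0.0510 to 0.0577), and the other without Atf7-/- natural mating replicate 3 (adjusted p = 0.0646). Both comparisons of Timm10, Timm44 and Tomm40 use the same 3 WT natural mating arrays, so their agreement in direction is not independent.

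Timm13, the partner of Timm8a1 in its chaperone complex, read 8.71, 8.53 and 8.63 in Atf7-/- IVF, 8.26, 8.47 and 8.27 in Atf7-/- natural mating, 8.57, 8.53 and 8.62 in WT IVF and 8.88, 8.80 and 8.84 in WT natural mating livers. WT natural mating values were the 3 highest and Atf7-/- natural mating values the 3 lowest of the 12. It fell in Atf7-/- against WT natural mating livers, with -0.50 (adjusted p = 0.00339, SE 0.0873), which is 1.42-fold lower. Its IVF effects differed by 0.56 (adjusted p = 0.0224, SE 0.12), with 0.29 (adjusted p = 0.0517, SE 0.0873) in Atf7-/- and -0.27 (adjusted p = 0.0871, SE 0.0873) in WT livers, neither of which passed. The difference missed the threshold without 5 of the 12 arrays, each left out alone (adjusted p from 0.0525 to 0.0619), which were Atf7-/- natural mating replicates 1 and 3, Atf7-/- IVF replicate 3 and WT IVF replicates 1 and 2.

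Tomm70a, the receptor for carrier proteins and other precursors with internal signals, passed with IVF in Atf7-/- livers. It read 9.49, 9.57 and 9.58 in Atf7-/- IVF, 9.18, 9.14 and 9.09 in Atf7-/- natural mating, 9.63, 9.56 and 9.49 in WT IVF and 9.39, 9.30 and 9.08 in WT natural mating livers. All 6 IVF values lay above all 6 natural mating values. In Atf7-/- livers it rose by 0.41 (adjusted p = 0.0154, SE 0.0928), a call of the test that ended without Atf7-/- natural mating replicate 3 or Atf7-/- IVF replicate 3 (adjusted p of 0.0587 and 0.0583). In WT livers it had 0.30 (adjusted p = 0.0689, SE 0.0928), and the difference between the IVF effects was 0.10 (adjusted p = 0.716, SE 0.13).

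The other receptor and channel genes did not pass in any comparison. Tomm20, the presequence receptor, read 8.61, 8.96 and 8.82 in Atf7-/- IVF, 9.10, 9.14 and 9.11 in Atf7-/- natural mating, 9.05, 8.94 and 8.81 in WT IVF and 9.32, 9.21 and 8.55 in WT natural mating livers on probe set 10477370. Its other probe set, 10582814, read 8.44, 8.87 and 8.55 in Atf7-/- IVF, 8.78, 8.66 and 8.61 in Atf7-/- natural mating, 8.94, 8.91 and 8.63 in WT IVF and 8.58, 8.64 and 8.15 in WT natural mating livers. The probe sets differed in the order of the groups, and on both of them WT natural mating replicate 3 was the lowest of the 12 arrays. The adjusted p of both was at least 0.160 in every comparison.

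Timm23, the presequence channel of the inner membrane, read 10.44, 10.76 and 10.66 in Atf7-/- IVF, 10.58, 10.47 and 10.41 in Atf7-/- natural mating, 10.78, 10.71 and 10.96 in WT IVF and 10.59, 10.73 and 10.14 in WT natural mating livers. WT natural mating replicate 3 was again the lowest array, and the groups overlapped in each of the 4 pairs that were compared. Its partner Timm17a read 9.12, 9.28 and 9.20 in Atf7-/- IVF, 9.24, 9.39 and 9.20 in Atf7-/- natural mating, 9.22, 9.32 and 9.38 in WT IVF and 9.28, 9.49 and 9.13 in WT natural mating livers on probe set 10358050. On probe set 10565081 it read 8.28, 8.61 and 8.39 in Atf7-/- IVF, 8.42, 8.49 and 8.33 in Atf7-/- natural mating, 8.21, 8.34 and 8.58 in WT IVF and 8.51, 8.79 and 8.41 in WT natural mating livers. The group means of 10358050 spanned 0.11, the narrowest span of the 27 probe sets. Timm50, the receptor of the TIM23 complex, read 8.25, 8.48 and 8.13 in Atf7-/- IVF, 8.32, 8.44 and 8.44 in Atf7-/- natural mating, 8.44, 8.35 and 8.35 in WT IVF and 8.39, 8.43 and 8.26 in WT natural mating livers, and its group means also spanned 0.11. Timm22, the channel for carrier proteins, read 7.15, 7.15 and 7.01 in Atf7-/- IVF, 6.98, 7.05 and 6.86 in Atf7-/- natural mating, 7.18, 7.30 and 7.26 in WT IVF and 6.84, 7.17 and 7.21 in WT natural mating livers, with Atf7-/- natural mating lowest and WT IVF highest by group mean.

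The remaining 11 genes passed in none of the comparisons. Among them Timm9, which works with Timm10, had the widest span of group means, with 8.0 ± 0.33 in Atf7-/- IVF, 7.56 ± 0.16 in Atf7-/- natural mating, 8.25 ± 0.34 in WT IVF and 7.95 ± 0.20 in WT natural mating livers (SD, n = 3 each), and its largest difference between groups that were compared was 0.44 (adjusted p = 0.184, SE 0.20) with IVF in Atf7-/- livers. Tomm7, a small subunit that shapes TOM assembly, averaged 8.81 ± 0.093 in Atf7-/- natural mating and 9.37 ± 0.46 in WT natural mating livers, a difference of -0.56 (adjusted p = 0.0863, SE 0.20). Its WT natural mating replicate 3, at 8.84, lay far below replicates 1 and 2, at 9.58 and 9.69, and without that array the difference was -0.83 (adjusted p = 0.00310). It also passed with array weights, with dim probe sets removed and with a replicate block (adjusted p from 0.00895 to 0.0464). Timm21, a TIM23 subunit that contacts the TOM complex, and Timm8b, a small TIM, had all IVF values above all natural mating values within each genotype, with Timm21 at 0.38 (adjusted p = 0.0977, SE 0.13) in WT and 0.24 (adjusted p = 0.278, SE 0.13) in Atf7-/- livers. Timm8b had 0.34 (adjusted p = 0.195, SE 0.15) in WT and 0.39 (adjusted p = 0.136, SE 0.15) in Atf7-/- livers, and neither gene passed. Timm17b, a paralogue of Timm17a, had 0.36 (adjusted p = 0.0945, SE 0.13) in Atf7-/- against WT natural mating and -0.33 (adjusted p = 0.126, SE 0.13) with IVF in Atf7-/- livers. Tomm5, Tomm6, Tomm20l, Tomm40l, Timm8a2 and Timm29 had group means that spanned 0.16 to 0.54. Timm8a2 and Tomm20l averaged below 6 over the 12 arrays, under the level used as an alternative filter.

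Counted over the 27 probe sets, Atf7-/- against WT natural mating livers gave 1 called higher (3.7%) and 2 called lower (7.41%, both of Timm8a1), against 3.83% and 3.67% of all probe sets. With no fold threshold 2 passed higher (7.41%) and 6 lower (22.2%), against 7.27% and 6.44%. The median log2 fold change of the members was -0.11, against -0.019 over all probe sets. The count of called lower probe sets was 4 without Atf7-/- natural mating replicate 1 and 4 without WT natural mating replicate 3. Those gained were Timm10 and Timm44 without the Atf7-/- array, and Timm44 and Tomm7 without the WT array.

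With IVF in Atf7-/- livers, 2 were called higher (7.41%) and 1 lower (3.7%), against 3.27% and 3.51% of all probe sets. At the adjusted p alone, 3 passed higher (11.1%) and 2 lower (7.41%), against 6.12% and 6.82%. With IVF in WT livers, 0 were called in either direction by limma (11 had an unadjusted p under 0.05), against 2.85% higher and 1.67% lower of all probe sets, and 0 passed higher and 3 lower (11.1%), against 5.13% and 3.49%. The median was 0.014 in Atf7-/- and 0.0082 in WT livers, against 0.0057 and -0.036 over all probe sets. The called lower count with IVF was 0 without Atf7-/- natural mating replicate 1 and 2 without Atf7-/- natural mating replicate 2 or Atf7-/- IVF replicate 2 in Atf7-/- livers. In WT livers it was 1, which was Timm10, without WT natural mating replicate 1, WT IVF replicate 1 or WT IVF replicate 3.

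Between Atf7-/- and WT IVF livers 0 of the 27 passed in limma, and 0 had an unadjusted p under 0.05, against 0% higher and 0.00575% lower of all probe sets. The log2 fold changes ran from -0.25 to 0.066, and 22 of 27 were below 0, with a median of -0.095 against 0.0073 over all probe sets. The IVF effects of the genotypes differed for 4 probe sets upwards (2 called) and 1 downwards (1 called), where 3.1% and 4.15% of all probe sets passed and 2.72% and 3.46% were called. The upward count of called probe sets was 1 without Atf7-/- natural mating replicate 3 or Atf7-/- IVF replicate 3.

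**Figure D3:**
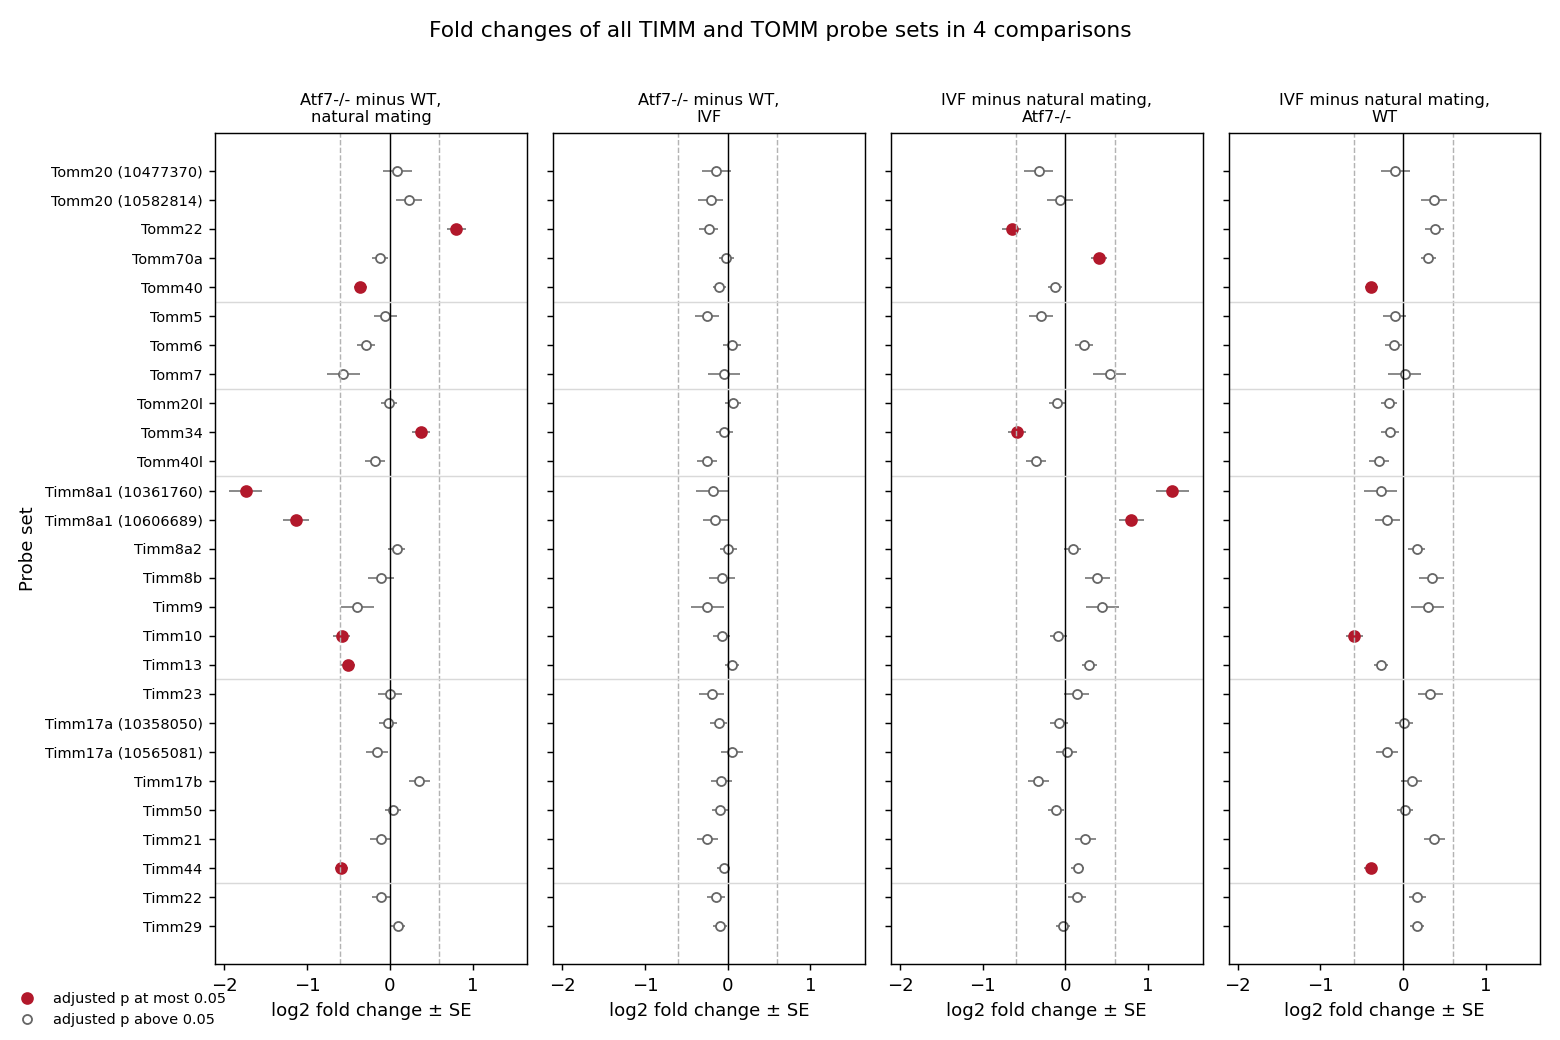
Log2 fold changes (x axis, with SE) of all 27 TIMM and TOMM probe sets (y axis, by complex) in 4 comparisons. Filled points passed the test, and dashed lines mark a log2 fold change of 0.6 in either direction. The points of Atf7-/- minus WT in IVF livers lie between -0.25 and 0.066, and Timm8a1 is at -1.74 and -1.14 for Atf7-/- minus WT in natural mating livers.

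By group mean, Atf7-/- natural mating was the lowest group for 11 of the 27 probe sets, Atf7-/- IVF for 8, WT natural mating for 6 and WT IVF for 2. WT natural mating was the highest group for 11, WT IVF for 10, Atf7-/- natural mating for 5 and Atf7-/- IVF for 1. The shares over all probe sets were not counted. The mean log2 value over the 27 probe sets was 8.32 ± 0.061 in Atf7-/- IVF, 8.25 ± 0.044 in Atf7-/- natural mating, 8.42 ± 0.043 in WT IVF and 8.43 ± 0.11 in WT natural mating livers (SD, n = 3 each). The spread of this mean between arrays was widest in WT natural mating. Replicate 3 of WT natural mating was the lowest of its group for 15 of the 27, against 16 each for Atf7-/- IVF replicate 1 and Atf7-/- natural mating replicate 3. After subtraction of group means, the 351 pairs of probe sets had a median Pearson's r of 0.074 over the 12 arrays, with 33 pairs above 0.7 and 4 below -0.7. Without WT natural mating replicate 3 the median was 0.12, with 24 pairs above 0.7 and 6 below -0.7. The arrays of these pairs share their normalization. The share of such pairs among other probe sets was not computed, so these counts are not shown to be particular to the members.

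The highest was Tomm70a with Tomm20 (10477370) at 0.93, against 0.78 without WT natural mating replicate 3, a check added after the data were seen. Timm23 with Timm8a1 (10606689) had 0.92, against 0.80 without that array. The 2 Timm17a probe sets had 0.91 with it and 0.91 without it, and the 2 Timm8a1 probe sets had 0.64 and 0.27.

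Other genes of protein import and processing were described from a list of 36, of which 34 genes (38 probe sets) were measured. In Atf7-/- against WT natural mating livers 3 were called higher and 0 lower, or 7.89% and 0% of the 38 against 3.83% and 3.67% of all probe sets, and at the adjusted p alone 4 passed higher and 4 lower, against 7.27% and 6.44% of all probe sets. Samm50, the core of the machinery that inserts barrel proteins such as Tomm40 into the outer membrane, averaged 10.5 ± 0.034 in Atf7-/- natural mating and 9.65 ± 0.11 in WT natural mating livers (SD, n = 3 each), a rise of 0.81 (adjusted p = 0.00155, SE 0.12). Bcs1l, which moves an iron-sulfur protein into complex III, rose by 0.71 (adjusted p = 0.00144, SE 0.11), and Timmdc1, a complex I assembly factor, by 0.71 (adjusted p = 0.00255, SE 0.12). The IVF effects of the genotypes differed for these 3, with Timmdc1 at -0.98 (adjusted p = 0.00637, SE 0.17), Bcs1l at -0.87 (adjusted p = 0.00713, SE 0.15) and Samm50 at -0.81 (adjusted p = 0.0191, SE 0.17).

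With IVF in Atf7-/- livers 4 probe sets of the list were called higher and 2 lower, against 3.27% and 3.51% of all probe sets. Hspe1, the mitochondrial chaperonin cofactor, rose on both of its probe sets, by 0.97 (adjusted p = 0.000397, SE 0.11) on 10455588 and 0.63 (adjusted p = 0.0177, SE 0.15) on 10346303. Immp1l, a peptidase of the inner membrane, rose by 0.64 (adjusted p = 0.00334, SE 0.11), whereas Bcs1l had -0.74 (adjusted p = 0.00143, SE 0.11) and Oxa1l, an insertase of the inner membrane, -0.67 (adjusted p = 0.00412, SE 0.12). With IVF in WT livers 4 were called higher and 0 lower, against 2.85% and 1.67% of all probe sets. These were Timmdc1 at 0.97 (adjusted p = 0.00170, SE 0.12) and Immp1l at 0.73 (adjusted p = 0.00390, SE 0.11), the protease gene Yme1l1 at 0.81 (adjusted p = 0.00612, SE 0.13) and the outer membrane gene Mtx2 at 0.84 (adjusted p = 0.0138, SE 0.17). Hspe1 also passed higher there on 10455588, at 0.42 (adjusted p = 0.0367), and had 0.28 (adjusted p = 0.271) on 10346303. The difference between its IVF effects passed on neither, at 0.55 (adjusted p = 0.0518) and 0.35 (adjusted p = 0.371). In Atf7-/- against WT natural mating livers they had -0.54 (adjusted p = 0.00731) and -0.40 (adjusted p = 0.105). The list's median was 0.11 in WT, 0.017 in Atf7-/- and 0.019 between the natural mating groups, against -0.036, 0.0057 and -0.019 over all probe sets.

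Of 16 genes that mark mitochondrial mass or drive its biogenesis (21 probe sets), 3 probe sets were called higher and 0 lower in Atf7-/- against WT natural mating livers, where 3.83% and 3.67% of all probe sets were called. At the adjusted p alone 5 passed higher and 1 lower, against 7.27% and 6.44% of all probe sets. Cs, citrate synthase, averaged 10.8 ± 0.055 in Atf7-/- natural mating and 9.95 ± 0.39 in WT natural mating livers (SD, n = 3 each), a rise of 0.89 (adjusted p = 0.00498, SE 0.16). Ppargc1a, the coactivator PGC-1α, rose by 0.76 (adjusted p = 0.00731, SE 0.15) on 1 of its 2 probe sets, and the other had 0.20 (adjusted p = 0.730). Tfb2m, a mitochondrial transcription factor, rose by 0.76 (adjusted p = 0.0226, SE 0.19) on probe set 10400165, whereas its probe set 10360580 had -0.45 (adjusted p = 0.350). With IVF in Atf7-/- livers Cs had -1.06 (adjusted p = 0.00219, SE 0.16) and Cycs, cytochrome c, 0.70 (adjusted p = 0.0217, SE 0.17) on 1 of its 3 probe sets, against 0.58 (adjusted p = 0.0298) and 0.48 (adjusted p = 0.296) on the others. Of all probe sets 3.27% were called higher and 3.51% lower in that comparison, and 1 and 1 of the list. With IVF in WT livers Tfb2m had 0.83 (adjusted p = 0.0239, SE 0.19) on 10400165 and 0.013 (adjusted p = 0.984) on 10360580, and Esrra, a nuclear receptor that works with PGC-1α, had -0.63 (adjusted p = 0.00642, SE 0.11). The IVF effects of the genotypes differed for Cs by -1.19 (adjusted p = 0.013, SE 0.23). For Vdac2 they differed by -0.63 (adjusted p = 0.0355, SE 0.16) on probe set 10531286, and its other probe set had 0.083 (adjusted p = 0.751). These were the 2 of the list called downwards, with 0 upwards, against 3.46% and 2.72% of all probe sets. The median over the list was -0.036 between the natural mating groups, 0.090 with IVF in Atf7-/- and 0.16 with IVF in WT livers, against -0.019, 0.0057 and -0.036 over all probe sets.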

How the data were processed

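Liver RNA of 12 male mice (4 groups of 3) was measured on Affymetrix Mouse Gene 1.0 ST arrays. The authors applied RMA from the R package affy, whose version is not given in the sources used here, and the deposited values are log2 expression per probe set. They were used unchanged, and 0 sample columns were left out. Genes were named from the platform annotation, in which 21640 of 34760 probe sets carry 1 symbol, and the symbols of all 27 members matched a RefSeq table by Entrez identifier. A model of 4 group means was fitted to all probe sets with limma (version 3.58.1, R 4.3.3), which leaves 8 residual degrees of freedom per probe set before moderation. Benjamini-Hochberg adjustment covered all 34760 probe sets. Thresholds followed the study's methods (0.05 and a log2 fold change of 0.6). The fit was tested on simulated data first. The number of arrays limits the precision. The labels and the table give no batch or scan date.

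The members and lists were chosen with earlier results of these data known, so no test was made over a list. Values on all 12 arrays are given for members that passed in any comparison and for the main channel and receptor genes, and up to 4 called members of each other list are named. Tomm7, Timm8b, Timm9, Timm17b and Timm21 were singled out after seeing their values. The results were recomputed with each array left out, with other thresholds, with probe sets of a mean log2 value under 6 removed or restricted to those with 1 symbol, with arrays weighted, centred on their medians or quantile normalized again, with a robust variance trend, with a replicate block, and on the compared groups alone. Figures were drawn with matplotlib 3.10.9 in Python 3.11.15. Promoter sequences were taken from RefSeq on GRCm38.p6, and the build behind the array annotation is not given in the sources used here.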

Additional observations from a re-analysis of the deposited data

Results flagged for a closer look

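The effect of IVF differed between the genotypes, by limma's test of the difference itself, for 5 of the 27 probe sets. The IVF effect in Atf7-/- livers minus that in WT livers was 1.56 on the log2 scale for Timm8a1 (10361760, adjusted p = 0.00850), 0.99 for Timm8a1 (10606689, adjusted p = 0.0210), 0.56 for Timm13 (adjusted p = 0.0224), 0.54 for Timm44 (adjusted p = 0.0152) and -1.03 for Tomm22 (adjusted p = 0.00477). Of all probe sets, 3.1% passed this test upwards and 4.15% downwards.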

How the results depend on the processing

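Timm8a1 and Tomm22 kept their direction and an adjusted p of at most 0.05 for IVF in Atf7-/- and ATF7 loss in natural mating under every alternative run, each array left out included. Over all single-gene results that passed, 0 reversed. The called lower count for ATF7 loss in natural mating was 4 with array weights, 4 with a further quantile normalization and 6 with no fold threshold, and its called higher count was 2 with no fold threshold. For IVF in WT the called lower count was 1 with a further quantile normalization and 3 with no fold threshold. For IVF in Atf7-/- the called lower count was 2 with no fold threshold. The called higher count of the interaction was 4 with a further quantile normalization, 4 with no fold threshold and 1 at an adjusted p of at most 0.01. The median log2 fold change for IVF in WT was -0.090 with array weights, 0.078 with median centring and -0.080 with a further quantile normalization, and that of the interaction was -0.11 with median centring. The cause was not tested.

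With each array left out, called counts ranged for IVF in WT from 0 to 0 higher and 0 to 1 lower, for IVF in Atf7-/- from 2 to 2 and 0 to 2, for ATF7 loss in natural mating from 1 to 1 and 2 to 4, for ATF7 loss in IVF from 0 to 0 in both directions and for the interaction from 1 to 3 and 1 to 1. Medians ranged from -0.077 to 0.084, -0.039 to 0.087, -0.16 to -0.047, -0.15 to -0.059 and -0.058 to 0.035 in the same order. After subtraction of group means, 3 of 18 same-numbered pairs of arrays from different groups correlated above 0.1 (median r 0.016). Among differently numbered pairs it was 3 of 36 (median r -0.020). Whether arrays with the same replicate number share a batch was not tested, and these correlations cannot settle it. With the replicate block the counts of calls stayed at 2 higher and 1 lower for IVF in Atf7-/-, 1 and 2 for ATF7 loss in natural mating and 0 and 0 for IVF in WT, and the medians stayed at 0.014, -0.11 and 0.0082. Tomm34 missed the threshold for ATF7 loss in natural mating with the replicate block (adjusted p = 0.0503) and in the fit of only the groups compared (adjusted p = 0.0924). In that second fit Tomm40 and Timm44 also missed it for IVF in WT (adjusted p = 0.0558 and 0.0708), and Tomm40 for ATF7 loss in natural mating (adjusted p = 0.05001). With the replicate block Tomm7 passed for ATF7 loss in natural mating (adjusted p = 0.0402) and Tomm40l for IVF in Atf7-/- (adjusted p = 0.0492). Passes gained with dim probe sets removed, which leaves fewer to adjust over, were Tomm22 (adjusted p = 0.0343), Tomm70a (0.0372) and Timm13 (0.0490) for IVF in WT, Timm13 (0.0269) and Tomm40l (0.0408) for IVF in Atf7-/-, Tomm7 (0.0464) for ATF7 loss in natural mating and Timm10 (0.0315) for the interaction.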
